A study of Mus musculus with 10 samples.

Results

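The 10 claudin genes Cldn1, Cldn3, Cldn5, Cldn6, Cldn9, Cldn10, Cldn11, Cldn12, Cldn14 and Cldn19 were followed in RNA-seq counts of the mouse cochlea. They were chosen by gene name from the 54532 genes counted, and all 10 were among the 18329 genes that passed the filter on low counts. RNA was taken from cochlear tissue of 12-month-old mtKeima mice, a reporter strain for mitochondrial degradation, with 1 library per mouse. Nicotinamide riboside (NR), a precursor of NAD+, was given in the drinking water at 7 mg/ml (24 mM) to 5 mice, from 2 months of age and for 10 months. The 5 non-treated mice, called Vehicle here after the label of the libraries, drank regular water. Both groups carry the mtKeima reporter, and neither young mice nor mice of another strain were part of the comparison. The sample labels give the sex as female, the study's methods describe male mice, and every library held reads of the 4 Y-linked genes examined (444 to 1928 reads each) with at most 8 reads of Xist. The comparison asks whether the cochlea of aged mice differs in claudin mRNA after long-term NR administration.

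Claudins are membrane proteins that join neighbouring cells at tight junctions and set which ions can pass between the cells. The cochlea depends on such seals to keep the potassium-rich endolymph apart from the perilymph and from the fluid inside the stria vascularis, the tissue that generates the endocochlear potential. Cldn11 forms the junctions of strial basal cells and is also found in the myelin of the central nervous system. Cldn9, Cldn14 and Cldn6 belong to the junctions of the sensory epithelium, and loss of Cldn14 or Cldn9 causes deafness. Cldn5 seals the endothelium of blood vessels, and Cldn19 is a claudin of Schwann cells, the myelinating glia of peripheral nerve.

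Among the 10 claudins, 3 were lower in NR-treated cochlea at an unadjusted p of 0.05 or below, and 0 were higher. The 3 were Cldn11, Cldn9 and Cldn10, with log2 fold changes of -0.43, -0.60 and -0.82. This is 30% of the claudins, where 9.71% of all tested genes passed the same threshold by edgeR's quasi-likelihood test, 4.88% as lower and 4.83% as higher. None of the 10 passed an adjusted p of 0.05 by edgeR's quasi-likelihood test with Benjamini-Hochberg adjustment, and neither did any of the 18329 genes. The smallest adjusted p was 0.411 among the claudins and 0.224 among all genes. By DESeq2, the same 3 claudins had an unadjusted p of 0.05 or below, where 10.5% of all genes did (5.11% lower, 5.4% higher). None of the 10 had such an adjusted p by DESeq2, while 103 of all genes (0.562%) did. The log2 fold change was below 0 for 6 of the 10 claudins, with a median of -0.22, against 52.9% of all tested genes and a median of -0.01.

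The libraries held between 17060379 and 24419230 counted reads, and the claudins had between 37 reads, the lowest for Cldn6, and 7814 reads, the highest for Cldn11, in a library. Libraries Vehicle 3 and Vehicle 4 stood apart in markers of the inner ear epithelia. Levels are in CPM, the reads of a gene scaled to the library's total count over the tested genes, multiplied by its TMM normalization factor. The summed level of 9 supporting cell and tectorial membrane markers was 1329 to 1884 CPM in 8 libraries. It was 2929 CPM in Vehicle 3 and 3103 CPM in Vehicle 4. The same libraries were highest for 10 hair cell markers, with 436 and 484 CPM against 146 to 268 CPM in the others. In Vehicle 2, markers of the middle ear mucosa summed to 36486 CPM, against 1196 to 8371 CPM in the other libraries. For most claudins and several marker lists, differences or counts are also given without Vehicle 3 and 4, and for Cldn10 also without Vehicle 2. Values of single marker genes and the counts of the other lists are from all libraries only. Skeletal muscle and adipocyte markers were higher in NR-treated cochlea, in 5 of 6 and 3 of 4 tested genes at an unadjusted p of 0.05 or below by edgeR. Muscle markers summed to 10.7 to 619 CPM in NR-treated and 8.54 to 59.3 CPM in non-treated mice, and adipocyte markers to 18.4 to 60.1 CPM and 4.49 to 17.4 CPM. The part of these tissues in the claudin levels was not tested. Fewer cells of a type and less RNA per cell cannot be told apart in counts of a whole tissue.

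The stretch just upstream of the start site is shown for Cldn11 and Cldn10, which were lower in NR-treated cochlea, for Cldn14, which varied widely among non-treated mice, and for Cldn5 as a claudin with a steady level, from RefSeq on GRCm38.p6. Each line gives 250 bases in the direction of transcription, ending at the base before the start site, with the CCAAT box (CCAAT on one strand, ATTGG on the other) in capitals. The first sequence belongs to Cldn11, the next 2 to separate RefSeq start sites of Cldn10, and the last to 1 of several windows of Cldn14 and to Cldn5.
Cldn11, chr3:31149670-31149919, plus strand: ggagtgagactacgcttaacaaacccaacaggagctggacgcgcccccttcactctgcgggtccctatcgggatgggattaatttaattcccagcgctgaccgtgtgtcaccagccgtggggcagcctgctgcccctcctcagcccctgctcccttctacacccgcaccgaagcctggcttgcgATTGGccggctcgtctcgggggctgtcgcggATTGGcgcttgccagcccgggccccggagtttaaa
Cldn10, upstream start site, chr14:118787621-118787870, plus strand: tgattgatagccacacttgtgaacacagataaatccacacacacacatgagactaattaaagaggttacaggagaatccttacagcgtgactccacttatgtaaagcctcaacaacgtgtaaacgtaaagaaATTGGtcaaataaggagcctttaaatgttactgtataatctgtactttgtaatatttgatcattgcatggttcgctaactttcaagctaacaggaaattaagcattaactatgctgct
Cldn10, downstream start site, chr14:118854700-118854949, plus strand: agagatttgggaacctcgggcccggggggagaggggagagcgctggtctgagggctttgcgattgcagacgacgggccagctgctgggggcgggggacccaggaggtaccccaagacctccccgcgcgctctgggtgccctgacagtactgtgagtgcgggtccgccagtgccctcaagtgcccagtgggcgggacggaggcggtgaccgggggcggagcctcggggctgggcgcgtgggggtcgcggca
Cldn14, chr16:94008838-94009087, minus strand: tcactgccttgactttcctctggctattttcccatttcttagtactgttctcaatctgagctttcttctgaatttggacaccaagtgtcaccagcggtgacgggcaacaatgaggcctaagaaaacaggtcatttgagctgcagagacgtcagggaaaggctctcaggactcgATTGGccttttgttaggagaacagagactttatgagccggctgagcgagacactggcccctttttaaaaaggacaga
Cldn5, chr16:18776597-18776846, plus strand: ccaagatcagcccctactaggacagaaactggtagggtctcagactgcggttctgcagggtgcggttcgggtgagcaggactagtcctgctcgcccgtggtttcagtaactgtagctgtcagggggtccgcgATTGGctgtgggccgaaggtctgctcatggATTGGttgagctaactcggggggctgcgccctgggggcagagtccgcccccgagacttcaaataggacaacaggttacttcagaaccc
Cldn11 held 2 CCAAT boxes, beginning 66 and 35 bases before the start, and Cldn5 held 2, at 118 and 88 bases. The upstream window of Cldn10 held 1, and its downstream window held 0. Of 32851 such windows over 27025 genes, 33.8% held at least 1 CCAAT box and 10.1% held 2 or more. RefSeq windows were found for 9 of the 10 claudins, 15 windows in all. Of the 15, 8 held the box, in Cldn5, Cldn10, Cldn11, Cldn12 and Cldn14. The windows of Cldn12 overlap each other, as do those of Cldn19, so the same copy of a motif can be counted repeatedly. The TATA box TATAAA, searched on both strands, was in 0 of the 15 windows and in 12.4% of all windows. The GC box GGGCGG, also on both strands, was in 9 of the 15 and in 32.7% of all, and none of these motifs holds another. The 2 RefSeq windows of Cldn10 differed in base composition, with a GC content of 36.0% upstream and 72.4% downstream, where the median of all windows was 52.4%. These matches describe the letters of the windows and were not set against the counts.

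Cldn11 lies on chromosome 3 (mm10, chr3:31149920-31164324, plus strand) and has 3 exons. Its level was 182, 213, 201, 220 and 182 CPM in NR 1 to NR 5 and 231, 222, 316, 331 and 246 CPM in Vehicle 1 to Vehicle 5. Each of the 5 NR-treated mice was below each of the 5 non-treated mice, although NR 4 at 220 CPM and Vehicle 2 at 222 CPM were close to each other. Among the 10 claudins, 1 had groups without overlap, where 1.65% of all tested genes did, 0.878% with NR-treated mice lower and 0.769% with them higher. The group means were 199.6 ± 17.3 CPM in NR-treated and 269.3 ± 50.5 CPM in non-treated cochlea (SD, n = 5). This gave a log2 fold change of -0.43 (SE 0.12, 95% interval -0.69 to -0.17) and an adjusted p of 0.411 by edgeR's quasi-likelihood test. An exact two-sided permutation test of the mean log2 CPM gave p = 0.00794, the smallest that the 252 labelings of the 10 libraries allow. Such exact tests were run for each of the 10 claudins without correction for their number. The adjusted p lay between 0.0845, by DESeq2, and 0.751, by edgeR without NR 3, over the alternatives tried. Leaving out any 1 library kept the log2 fold change between -0.48 and -0.34 and the unadjusted p of edgeR at or below 0.05.

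The 2 highest levels of Cldn11 came from Vehicle 3 and Vehicle 4, the libraries that also stood apart in supporting cell markers. Without both, the log2 fold change was -0.22 (SE 0.08, 95% interval -0.39 to -0.05), closer to 0 than with all libraries, and the exact permutation test gave p = 0.0357. The 3 remaining non-treated mice were still above all 5 NR-treated mice. Of the 9 supporting cell and tectorial markers, 8 were lower in NR-treated cochlea at p of 0.05 or below, and the median over the list was -0.77 on the log2 scale. By edgeR, 0 of the 9 were lower and 1 was higher once Vehicle 3 and 4 were left out, with a median of -0.16. With all libraries, Tecta and Tectb, which encode tectorins of the tectorial membrane, had log2 fold changes of -1.24 and -1.43. The gap junction genes Gjb2 and Gjb6 stood at -0.52 and -0.37. After subtraction of the group means, the level of Cldn11 followed the mean level of this list over the 10 libraries (Pearson's r = 0.95, and 0.83 without Vehicle 3 and 4). It also followed the strial marginal cell markers, with r = 0.89, and 0.84 without Vehicle 3 and 4. For the hair cell markers these values were 0.87 and 0.34, and for the genes associated with strial basal cells 0.73 and -0.09. The correlations given here are descriptions over libraries that differ in depth and in their mix of cells.

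Markers of the stria vascularis were mixed, with calls for marginal and intermediate cells and none for a short list of 3 genes associated with basal cells. Of 6 marginal cell markers, 4 were lower in NR-treated cochlea at p of 0.05 or below, with a median of -0.60 on the log2 scale, and the summed level ranged from 1014 to 1609 CPM in NR-treated and from 1377 to 3229 CPM in non-treated cochlea. Slc12a2, the potassium-loading cotransporter of marginal cells, stood at -0.72. Of 6 intermediate and pigment cell markers, 4 were lower, with Tyr at -1.21 and Kcnj10, the potassium channel of intermediate cells, at -0.59. The other pigment genes without a call, Tyrp1 and Pmel, stood at 0.50 and 0.04. The 3 genes associated with basal cells, the strial cells that express Cldn11, were Sox8, Nr2f2 and Slc2a1. They gave 0 calls and a median of -0.11, with 264 to 308 CPM against 275 to 356 CPM. Whether these 3 genes follow basal cells in a whole cochlea was not tested, so they do not show that basal cells were unchanged. Of 5 tested oligodendrocyte markers, 0 passed, and their summed level lay between 138 and 203 CPM in NR-treated and between 73.3 and 216 CPM in non-treated cochlea. Leaving out Vehicle 3 and 4, 1 of 6 marginal and 3 of 6 intermediate markers were lower, with medians of -0.21 and -0.44. No marker of these lists was at 0 in all libraries. The part of these cell types in the level of Cldn11 was not tested.

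**Figure D1:**
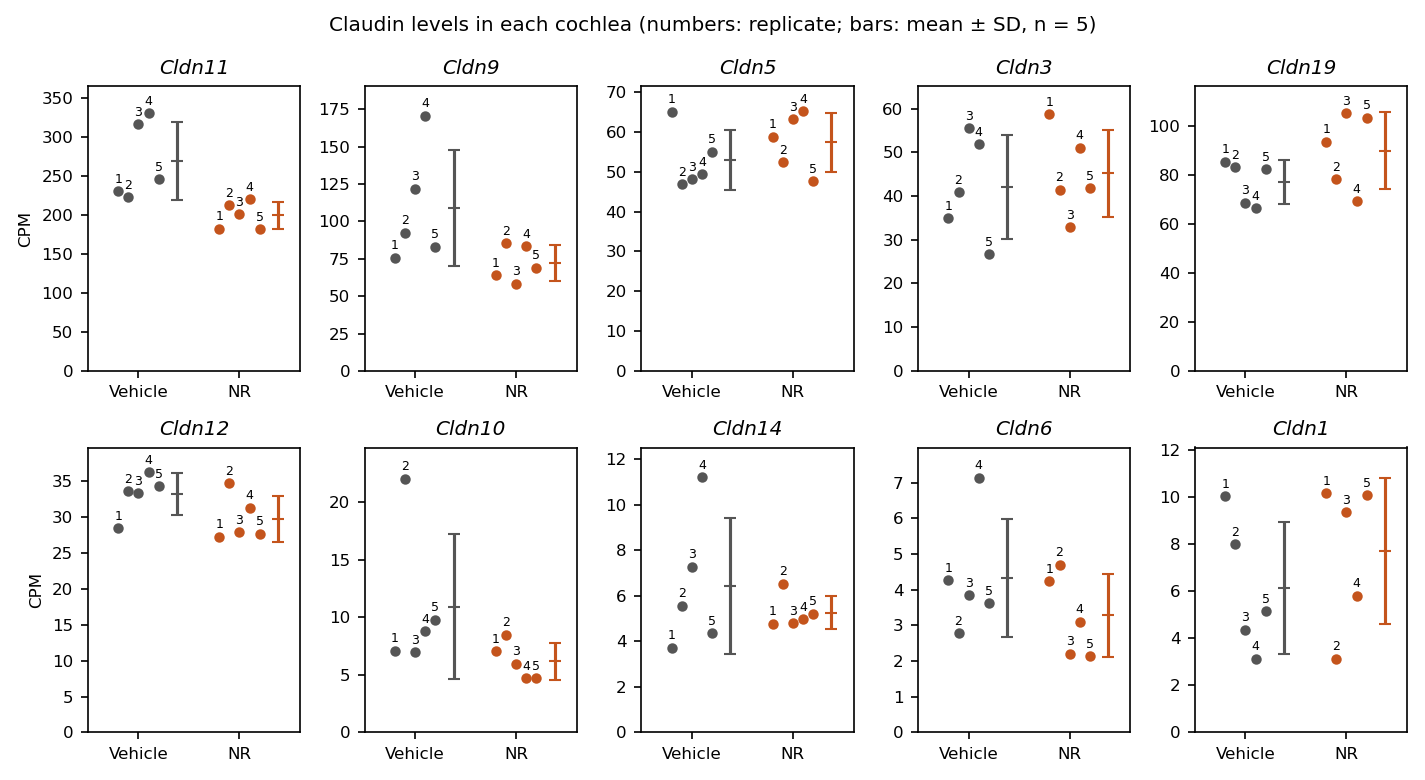
CPM (y axis, from 0) of each claudin in every cochlea, with non-treated (Vehicle) mice in grey and NR-treated mice in orange, the replicate number above each point, and bars for the mean ± SD of 5 mice. In the Cldn11 panel all NR-treated mice lie below all non-treated mice, in the Cldn9 panel Vehicle 4 stands highest at 171 CPM, and in the Cldn10 panel Vehicle 2 stands alone at 22.0 CPM.

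Cldn9 has a single exon on chromosome 17 (chr17:23682584-23684026, minus strand), next to Cldn6 on the other strand. The level of Cldn9 was 64.0, 85.6, 58.4, 83.2 and 69.2 CPM in NR 1 to NR 5. In Vehicle 1 to Vehicle 5 it was 75.8, 92.5, 122, 171 and 83.2 CPM. The groups overlapped, since NR 2 and NR 4 reached the levels of Vehicle 1 and Vehicle 5, and the spread was larger in non-treated (109 ± 38.8 CPM) than in NR-treated mice (72.1 ± 11.9 CPM, SD, n = 5). Its log2 fold change was -0.60 (SE 0.21, 95% interval -1.06 to -0.13), with an adjusted p of 0.458 by edgeR's quasi-likelihood test. The exact two-sided permutation test, at p = 0.0556, did not pass 0.05. Without Vehicle 4, the library with the highest level, the log2 fold change was -0.37 (95% interval -0.73 to -0.02). Without Vehicle 3 and Vehicle 4 it was -0.21 with a 95% interval of -0.51 to 0.08, so the call by edgeR was lost when these 2 libraries were left out together. The level of Cldn9 followed the marginal cell markers (r = 0.90, and 0.69 without Vehicle 3 and 4) and the supporting cell markers (0.88 and 0.72). It ran against the Schwann cell myelin markers (-0.73 and -0.93) and the spiral ganglion neuron markers (-0.86 and -0.89). Of 7 spiral ganglion neuron markers, 2 were higher in NR-treated cochlea at an unadjusted p of 0.05 or below by edgeR, and 1 without Vehicle 3 and 4. The part of these cell types in the result was not tested.

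Cldn14, which seals the junctions around hair cells, was a low transcript with 4.77, 6.53, 4.80, 4.98 and 5.21 CPM in NR 1 to NR 5. Non-treated mice had 3.72, 5.57, 7.28, 11.2 and 4.36 CPM in the same order. The lowest and the highest level were both in the non-treated group, with a coefficient of variation of 46.5% against 13.9% in NR-treated mice. NR-treated mice stood at a log2 fold change of -0.29 (SE 0.27, 95% interval -0.89 to 0.31, exact permutation p = 0.579). Without Vehicle 3 and 4 the sign turned, to 0.21 (95% interval -0.20 to 0.62). Cldn14 varied in step with Cldn9, with r = 0.94 over the 10 libraries after subtraction of the group means and 0.72 without Vehicle 3 and 4. Against the hair cell markers, r was 0.84 with these libraries and 0.30 without them. It was similar against the supporting cell markers (0.84 and 0.57) and the strial marginal cell markers (0.84 and 0.41). Of the 10 hair cell markers, only Loxhd1 passed p of 0.05, at a log2 fold change of -0.90. When Vehicle 3 and 4 were left out, 0 hair cell markers were lower, 1 was higher, and the median was 0.08.

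Cldn6, a claudin best known from embryonic epithelia, lies tail to tail with Cldn9 with 137 bases between the genes, and was at the edge of what these libraries measure well, with 37 to 162 reads. NR-treated mice had 2.14 to 4.70 CPM and non-treated mice 2.78 to 7.14 CPM, with the highest level in Vehicle 4. The difference of -0.40 on the log2 scale had a 95% interval from -1.05 to 0.25, which leaves a difference in either direction possible. It was -0.14 without Vehicle 4 and -0.11 without Vehicle 3 and 4.

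Cldn10 encodes ion-selective claudins that differ by their first exon, and the counts here are per gene, so the forms from its start sites could not be separated. The gene spans chr14:118787908-118875489 on the plus strand, with 3 coding transcripts in the annotation. NR 1 to NR 5 had 7.04, 8.50, 5.97, 4.72 and 4.69 CPM, and Vehicle 1 to Vehicle 5 had 7.10, 22.0, 6.96, 8.77 and 9.80 CPM. Vehicle 2 had more than 2 times the level of any other library, and the remaining 4 non-treated mice overlapped with the NR-treated mice. The fit gave a log2 fold change of -0.82 (SE 0.33, 95% interval -1.54 to -0.10) and an adjusted p of 0.476 by edgeR's quasi-likelihood test. The exact two-sided permutation test gave p = 0.0476, and p = 0.0536 without Vehicle 3 and 4, where the log2 fold change of edgeR was -1.07. Without Vehicle 2 the log2 fold change was -0.38 (SE 0.20, 95% interval -0.84 to 0.07), and the unadjusted p of edgeR then rose above 0.05, as it did without NR 3 (-0.80), NR 4 (-0.73) or NR 5 (-0.73). Vehicle 2 is the library with the high middle ear mucosa markers, among them the airway mucin gene Muc5b at 4264 CPM and the secreted antimicrobial protein gene Bpifb1 at 28396 CPM. Cldn10 followed the mean level of this list with r = 0.66 (Spearman's rho 0.32) over 10 libraries and with r = -0.33 over the 9 without Vehicle 2. The part of that tissue in its level was not tested.

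**Figure D2:**
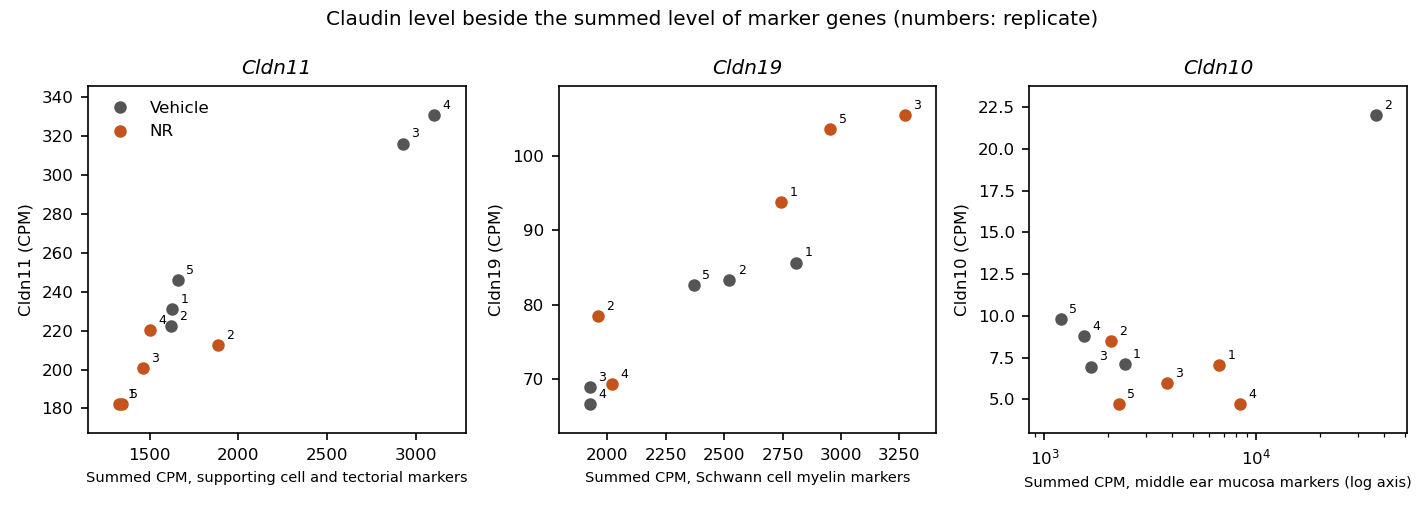
Level of 3 claudins in CPM (y axes) against the summed CPM of a marker list (x axes, the right one logarithmic), for the 10 libraries with their replicate numbers. NR 1 and NR 5 nearly coincide in the left panel. Each list was the one with the highest Pearson's r with its claudin over all 10 libraries, with group means subtracted. Vehicle 3 and 4 lie at the upper right for Cldn11, NR 3 and NR 5 at the upper right for Cldn19, and Vehicle 2 lies apart from all others for Cldn10, and each list was picked for its panel after the values were seen.

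Cldn19 was the claudin with the largest shift upward relative to its error, although it did not pass the threshold. Its level was 93.8, 78.4, 105, 69.3 and 104 CPM in NR 1 to NR 5 and 85.6, 83.3, 68.9, 66.6 and 82.6 CPM in Vehicle 1 to Vehicle 5. NR 1, NR 3 and NR 5 were above every non-treated mouse, while NR 2 and NR 4 lay within their range. The difference was 0.22 on the log2 scale (SE 0.12, 95% interval -0.05 to 0.49, exact permutation p = 0.175). Without NR 4, the lowest NR-treated library, it was 0.31 and passed an unadjusted p of 0.05 by edgeR, and without Vehicle 3 and 4, its lowest libraries, it was 0.11 (95% interval -0.19 to 0.41). Its level followed the 7 Schwann cell myelin markers with r = 0.95 and 0.96 without Vehicle 3 and 4. Their summed level was 1959 to 3273 CPM in NR-treated and 1927 to 2808 CPM in non-treated cochlea, 7 of 7 had a log2 fold change above 0, and 0 passed p of 0.05. Of the 7, 4 were above 0 without Vehicle 3 and 4. An antisense gene, Gm12927, shares 90 exonic bases with Cldn19, but it had only 38 reads over all libraries.

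Cldn5, the endothelial claudin, was among the steadier members, with a coefficient of variation of 12.8% in NR-treated and 14.1% in non-treated mice. Its levels were 47.6 to 65.2 CPM in NR-treated and 46.9 to 65.1 CPM in non-treated mice, which is almost the same range. Between the groups the log2 fold change was 0.12, with a 95% interval from -0.12 to 0.36, and 0.05 without Vehicle 3 and 4. Of 9 endothelial markers, 3 were higher in NR-treated cochlea at p of 0.05 or below, among them Pecam1 at 0.30 and Egfl7 at 0.28, and 1 of 9 was higher without Vehicle 3 and 4. Of the 4 markers of endothelium with a blood-brain barrier character, 0 passed and 4 of 4 were below 0, with a median of -0.17. Cldn5 followed the general endothelial list with r = 0.60 and ran against the barrier list with r = -0.46.

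Cldn3 and Cldn1, claudins of many epithelia, and Cldn12, a widely expressed member, gave no call. Cldn3 ranged from 32.9 to 58.7 CPM in NR-treated and from 26.7 to 55.6 CPM in non-treated mice, with a log2 fold change of 0.10 and a 95% interval from -0.35 to 0.56. It was 0.41 (95% interval -0.04 to 0.85) without Vehicle 3 and 4, which had the highest levels of the non-treated mice. It followed a list of 5 general epithelial genes, such as Epcam and Cdh1, with r = 0.92. Cldn12 was the most even claudin, at 27.3 to 34.8 CPM against 28.4 to 36.3 CPM, and its log2 fold change of -0.16 had a 95% interval from -0.35 to 0.04. It passed an unadjusted p of 0.05 by edgeR without NR 2 (-0.21) or without Vehicle 1 (-0.20). Cldn1 varied most among the NR-treated mice, at 10.2, 3.13, 9.35, 5.81 and 10.1 CPM in NR 1 to NR 5. Non-treated mice had 10.0, 7.99, 4.37, 3.13 and 5.15 CPM, and the log2 fold change of 0.33 had an SE of 0.37. The 95% interval without Vehicle 3 and 4 was -0.96 to 0.96. Unlike Cldn3, Cldn1 did not follow the general epithelial list (r = -0.49, and -0.14 without Vehicle 3 and 4). It ran against the supporting cell markers (-0.89 and -0.93). Cldn1 followed the markers of spiral ganglion neurons (0.91 and 0.87) and of Schwann cell myelin (0.82 and 0.83).

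**Figure D3:**
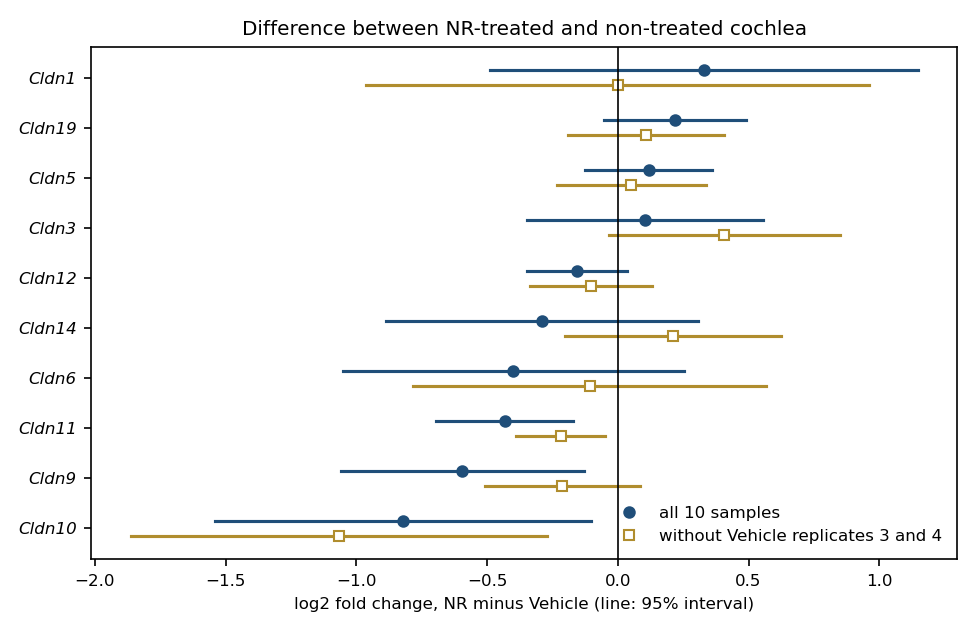
Log2 fold change of each claudin, NR-treated minus non-treated (x axis), with 95% intervals from edgeR, for all 10 libraries (blue circles) and without Vehicle 3 and 4 (open squares). With all libraries the intervals of Cldn11, Cldn9 and Cldn10 lie below 0, and without Vehicle 3 and 4 that of Cldn9 crosses 0 and the value of Cldn14 lies above 0.

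Some claudins varied together between mice, and for Cldn9, Cldn11 and Cldn14 this rested in part on Vehicle 3 and 4. Over the 10 libraries, with group means subtracted, Cldn9, Cldn11 and Cldn14 had correlations of 0.94 (Cldn9 with Cldn14), 0.86 (Cldn9 with Cldn11) and 0.79 (Cldn11 with Cldn14). Without Vehicle 3 and 4 these were 0.72, 0.50 and 0.10. Cldn12 followed Cldn9 with r = 0.71 (0.84 without Vehicle 3 and 4), Cldn14 with 0.65 (0.77) and Cldn11 with 0.59 (0.66). Cldn1 and Cldn19 varied together at r = 0.78. Both ran against Cldn9 and Cldn11, with -0.77 between Cldn11 and Cldn19 and -0.79 between Cldn9 and Cldn19. Without Vehicle 3 and 4 these were -0.74 and -0.82. Between Cldn14 and Cldn19 the values were -0.57 and -0.29. The strongest opposition was between Cldn1 and Cldn12, at -0.92 and -0.94.

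**Figure D4:**
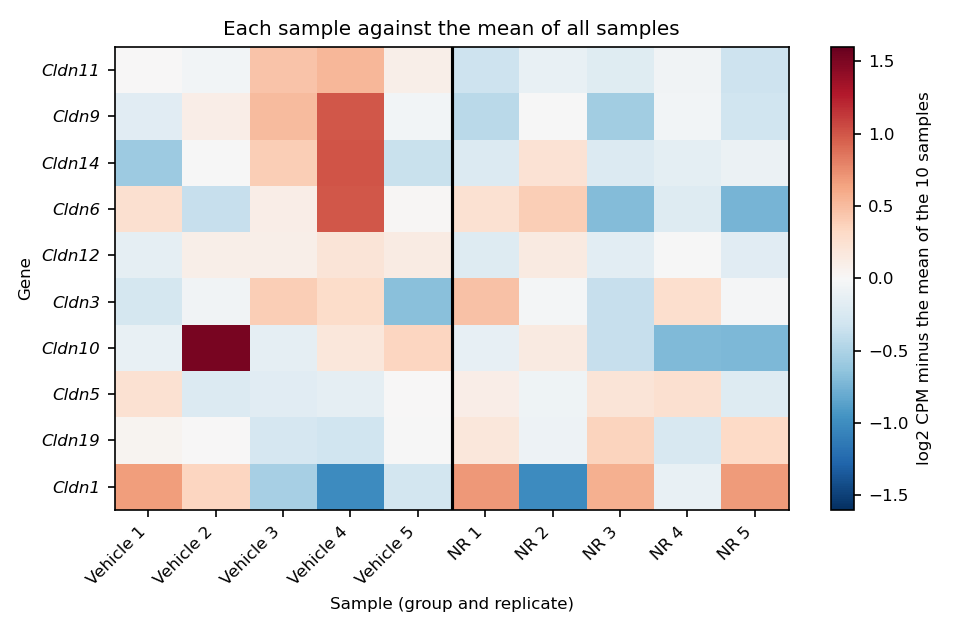
Log2 CPM of each claudin (vertical axis) in each library (horizontal axis, Vehicle 1 to 5, then NR 1 to 5) minus the mean of the 10 libraries, with red above and blue below the mean. Vehicle 3 and Vehicle 4 are red for Cldn11, Cldn9 and Cldn14 and blue for Cldn19 and Cldn1, and Vehicle 2 has the darkest square, for Cldn10.

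The genes whose course over the libraries was most like that of a claudin were taken from all 18329 tested genes by Pearson's correlation with group means subtracted. With so many genes and 10 libraries, high values are found for any gene. For Cldn11 they were Lrp6 (0.99), a Wnt co-receptor, Inava (0.98) and Ccdc186 (0.97). Il17re (0.99), Dixdc1 (0.99) and Gpr37 (0.98) came first for Cldn9. The list for Cldn14 was Fgfrl1, Cited2 (both 0.98) and Gbp10 (0.97). Prx, which encodes periaxin of Schwann cell myelin, led for Cldn19 at 0.96, followed by Lax1 (0.96) and Arhgap19 (0.95). Cldn3 had Grb7 (0.98) and Fam83h (0.97) among its closest, and Cldn10 was most like Snx12 (0.96), Slc1a1 (0.94) and 1700021N21Rik (0.93). The closest to Cldn5 were Gm37397 (0.94), Timmdc1 (0.91) and Top1mt (0.90). The remaining 3 claudins were closest to Msi2 for Cldn12 (0.97), Gm37503 for Cldn6 (0.93) and Rpl27a for Cldn1 (0.98).

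Levels were compared between claudins per length, as RPKM (CPM divided by the gene's exonic length in kilobases). Cldn11 was the highest, at 125 ± 27.4 RPKM (SD over the 10 libraries), above 98.3% of tested genes. It was followed by Cldn9 at 62.7 ± 23.1 RPKM, Cldn5 at 39.0 ± 5.22 RPKM and Cldn3 at 34.6 ± 8.32 RPKM. Cldn19 stood at 19.6 ± 3.25 RPKM and Cldn12 at 7.45 ± 0.804 RPKM, and the ranges of these 2 were the only neighbouring ones that did not overlap. The low group held Cldn10 at 3.30 ± 1.94 RPKM, Cldn14 at 2.74 ± 1.01 RPKM, Cldn6 at 2.21 ± 0.850 RPKM and Cldn1 at 1.43 ± 0.603 RPKM. Within a library, Cldn11 was above Cldn9 in 10 of 10 and Cldn9 above Cldn5 in 9 of 10, but Cldn10 was above Cldn14 in only 6 of 10, so the order of the low members is not firm. Cldn11 made up 36.4% to 41.7% of the summed RPKM of the 10 claudins in NR-treated and 40.9% to 46.3% in non-treated mice.

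**Figure D5:**
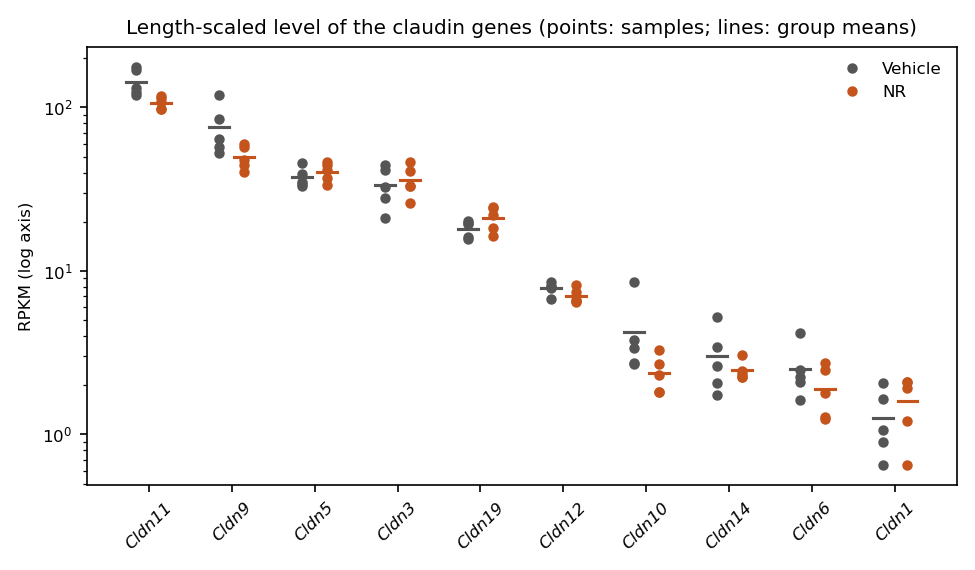
RPKM of each claudin (logarithmic y axis) in the 10 libraries, in order of mean level, with points for mice and lines for group means. Cldn11 is highest and Cldn1 lowest, at means over all libraries of 125 and 1.43 RPKM, and the ranges of Cldn19 and Cldn12 do not overlap.

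The other genes of the junction were read from a list of 15 further claudins and 32 partner genes. Of the further claudins, 13 were in the files, 10 had reads and 7 were tested, and 0 of the 7 passed an unadjusted p of 0.05 by edgeR in either direction. The most abundant of them were Cldn13 at 33.0 RPKM, Cldn8 at 12.4 RPKM and Cldn7 at 12.0 RPKM. All 32 partner genes were tested, 1 was higher and 1 was lower at p of 0.05 or below, and 24 had a log2 fold change below 0, with a median of -0.11. The lower one was Jam2, a junctional adhesion molecule, at -0.21 (SE 0.07, adjusted p = 0.434 by edgeR). The higher one was Magi1, a scaffold of cell junctions, at 0.28 (SE 0.12). Ybx3 and Jam3 had the highest levels among the partners, at 44.4 and 24.1 RPKM. Over both lists 5.13% of 39 tested genes passed, against 9.71% of all tested genes.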

How the data were processed

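The cochlear RNA-seq libraries of 5 NR-treated and 5 non-treated mtKeima mice were used. The authors deposited raw counts per gene for each mouse, made by Novogene from poly(A) libraries without strand information. Per the labels and the study's methods, reads were aligned to mm10 with STAR 2.6.1d and counted with featureCounts 1.5.0, the submitters' notes also name DESeq2 1.26.0, and the annotation release is not given in the sources used here. CPM was computed per total count over the tested genes, multiplied by the TMM factor of the library. RPKM was computed from CPM with the gene length in the files. Counts were fitted with edgeR 4.0.16 (R 4.3.3) over the 18329 genes that passed filterByExpr, with TMM normalization, the quasi-likelihood test, no covariate, and Benjamini-Hochberg adjustment. Intervals are 95% intervals of the fitted coefficient. Correlations and exact permutation tests, added after the data were seen, used TMM log2 CPM with a prior count of 2. Alternatives were DESeq2 1.42.0, its size factors, other filters, a robust dispersion, a replicate block, and leaving out libraries. The script was tested on simulated data. Coordinates in the files matched GENCODE M21 for all 10 genes. The members, the marker lists and the tight junction lists were chosen with earlier results of these data known. All members are named, and other genes are named when p was 0.05 or below, by level (the 3 highest in each list), by likeness (the 3 most similar, or the first for some), or to describe a marker list. Some genes that this rule names are not reported here. Total counts differed by less than 1.5 times between libraries. Cldn6 had the fewest reads (SE 0.30), while Cldn1 (SE 0.37) and Cldn10 (SE 0.33) had the least precise log2 fold changes. No 2 libraries agreed within sampling noise.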

Additional observations from a re-analysis of the deposited data

Results flagged for a closer look

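In 7 of 70 groups of 5 libraries examined (claudins, other tight junction claudins and marker lists), 1 library lay far from the other 4 by Dixon's ratio, where chance gives about 1 in 20. Cldn10 was at 22.0 CPM in Vehicle 2, with the other non-treated mice at 6.96 to 9.80 CPM. Cldn14 was at 6.53 CPM in NR 2, with the other NR-treated mice at 4.77 to 5.21 CPM. Cldn13, a claudin outside the 10, was at 49.4 CPM in NR 5, against 23.0 to 28.3 CPM. The summed level of middle ear mucosa markers was 36486 CPM in Vehicle 2, the library with the high Cldn10, against 1196 to 2388 CPM. Oligodendrocyte markers summed to 73.3 CPM in Vehicle 1, against 179.7 to 216 CPM, while Cldn11 in that library, at 231 CPM, was within the range of its group. Skeletal muscle markers summed to 59.3 CPM in Vehicle 1, against 8.54 to 12.1 CPM, while NR-treated mice reached 619 CPM. Fibrocyte markers summed to 5097 CPM in NR 2, against 3276 to 3679 CPM. The part of these tissues in the levels of the claudins was not tested.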

How the results depend on the processing

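The counts of 3 lower and 0 higher claudins at an unadjusted p of 0.05 were the same with DESeq2, its size factors, other filters, a robust dispersion and the replicate block. Leaving out 1 library at a time gave 2 to 4 lower and 0 to 1 higher claudins (Cldn19, without NR 4). In the other tight junction genes, the further claudins and partners together, it gave 0 to 1 higher (0 without NR 3, Vehicle 2, Vehicle 3 or Vehicle 5) and 1 to 5 lower (5 without Vehicle 1 or Vehicle 5, 3 without Vehicle 2, 2 without NR 2, NR 4 or Vehicle 4). Over all tested genes it gave 669 to 1414 higher (1414 without NR 2), 484 to 1059 lower (484 without NR 3, 521 without NR 1, 558 without Vehicle 3), and 0 to 1 higher at an adjusted p of 0.05. Without Vehicle 3 and 4, 2 claudins were lower, and 3 other tight junction genes were higher and 4 lower. Over all tested genes, 767 were higher and 1042 lower in that fit. With every gene of at least 1 read kept, 2 other tight junction genes were lower. In that fit 1414 of 33224 genes were higher and 1066 lower, against 886 and 894 of the 18329 genes that passed the filter. At an adjusted p of 0.05 DESeq2 called 51 genes higher and 52 lower. Cldn3, which passed in no fit, lay between -0.022 (without Vehicle 5) and 0.24, with 1 library left out, was -0.0006 without NR 1, and 0.41 without Vehicle 3 and 4. Cldn14 lay between -0.42 and 0.0047 (without Vehicle 4), and was 0.21 without Vehicle 3 and 4 in edgeR and in the exact permutation test. Cldn1 was -0.077 in that exact test without Vehicle 3 and 4. The exact tests were added after the data were seen, and in them Cldn9 no longer passed 0.05, nor did Cldn10 without Vehicle 3 and 4. The causes were not tested.

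Replicate numbers are shared by the groups, but the deviations of same-numbered libraries correlated at 0.17, -0.12, -0.22, 0.016 and 0.13 for numbers 1 to 5, and only number 1 correlated best with its own number. With the replicate number as a block, 3 claudins and 2 other tight junction genes were lower. Over all tested genes, 776 were lower and 879 higher with the block. Cldn6, Cldn14, Cldn10 and Cldn1 had the fewest reads, fewer than 500 in each library. Their SEs, from 0.27 for Cldn14 to 0.37 for Cldn1, were the largest of the claudins. The part of depth in this was not tested.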
